A study of Mus musculus with 6 samples.

Results

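The small leucine-rich proteoglycans are secreted matrix proteins built around a chain of leucine-rich repeats, and 7 genes of this decorin family were followed here: Dcn, Bgn, Lum, Fmod, Ogn, Prelp and Aspn. They were taken by gene symbol from a deposited table of 45038 genes, and each symbol matched exactly 1 identifier. The proteins bind collagen fibrils and set fibril diameter and spacing, and several also carry sulfated sugar chains and bind growth factors such as TGF-beta. In the heart they are made mainly by fibroblasts, and they are known as components of the collagen scar that forms after infarction. By sequence and gene structure, Dcn, Bgn and Aspn belong to class I, Lum, Fmod and Prelp to class II, and Ogn to class III.

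The libraries came from C57BL/6 mice, aged 6 to 8 weeks per the treatment protocol, that carried Tie2-Cre, a recombinase driven by the promoter of the endothelial receptor Tie2, and Rosa-LSL-tdTomato, a reporter that the recombinase switches on. The Tie2 promoter is also active in part of the blood cell lineage, so the label marks a lineage and not endothelial cells alone. Myocardial infarction (MI) followed surgical closure of the left anterior coronary branch (LAD), and 3 MI libraries hold cells from the infarct region taken 3 weeks later. The other 3 libraries, Normal, hold cells from normal left ventricle and are labelled as without MI surgery. All 6 were sorted as positive for tdTomato and negative for F4/80, a macrophage antigen. Both groups use the numbers Ms1535, Ms1537 and Ms1608, and the labels do not say whether a number marks the same mouse.

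The values are FPKM, fragments per kilobase of transcript and scaled to the mapped fragments of the library. Comparisons between genes within a library are therefore given as a description. They take reads to be spread evenly along transcripts, which was not examined for this amplified RNA. Steps in the low values implied depths of 34.7 to 48.4 M fragments, and were not reconciled with the protocol, which gives about 10 megabyte reads a sample. Correlations between libraries on the log2(FPKM + 1) scale across the tested genes, which are not independent replicates, ran from 0.798 to 0.917 among 5 libraries and from 0.544 to 0.685 between these and Normal Ms1608. Normal Ms1608 also stood apart in its cell type markers. The summed level of 12 endothelial markers was 37.9 FPKM there, with 9 of the 12 below 1 FPKM and none listed at 0, against 281 to 1309 FPKM in the other 5 libraries. Most of the 37.9 FPKM was Pecam1, at 28.35 FPKM, which was above its level in each of the other 5 libraries. The summed level of 9 leukocyte markers was 10450 FPKM in Normal Ms1608, between 5005 and 7296 FPKM in the MI libraries, and 1330 and 1582 FPKM in Normal Ms1535 and Ms1537. The limma comparisons are therefore given with and without that library.

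All 7 mRNAs had higher group means in MI than in Normal, and none passed the limma threshold with all 6 libraries. Of the 7, decorin mRNA was the most abundant in every library and fibromodulin mRNA the least. The 7 genes shared their lowest library in each group but not their highest. Dcn and Lum were highest in MI Ms1535, and Bgn, Fmod, Ogn, Prelp and Aspn in MI Ms1537. MI Ms1608 was the lowest MI library for 7 of 7 and Normal Ms1608 the lowest Normal library for 7 of 7, whereas these libraries were lowest in their groups for 59.7% and 46.3% of tested genes. Outside the Ms1608 libraries the groups were apart for all 7 genes, with both MI values above both Normal values, as for 69.0% of tested genes.

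**Figure D1:**
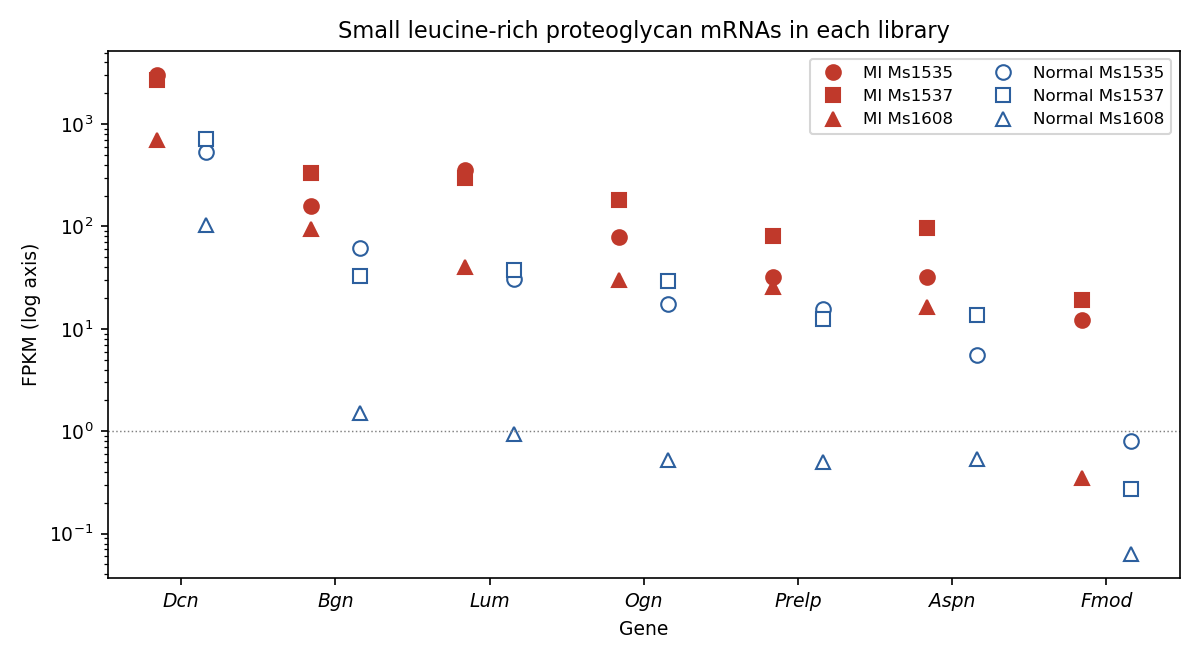
FPKM (log axis) of the 7 genes in each library, MI filled and Normal open, with the library number given by the marker shape and a dotted line at 1 FPKM. Dcn lies highest in every library and Fmod lowest, and Normal Ms1608 lies below all other libraries for every gene.

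Among the class I genes, Dcn encodes decorin, which coats collagen fibrils and binds TGF-beta. Its level was 3035, 2717 and 702 FPKM in the MI group and 530.0, 707 and 104 FPKM in the Normal group, each in the order Ms1535, Ms1537, Ms1608. MI Ms1608 therefore lay just below Normal Ms1537, and the groups overlapped. The mean was 2151 ± 1265 FPKM after MI against 447 ± 309.7 FPKM for Normal (SD, n = 3 each). The difference of mean log2(FPKM + 1), counted as MI less Normal, was 2.398 (SE 0.84, 95% interval 0.52 to 4.27, limma adjusted p = 0.252). Among the 10168 tested genes Dcn ranked 25, 36 and 100 by level in the MI libraries and 118, 78 and 746 in the Normal libraries.

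Bgn encodes biglycan, the closest relative of decorin, which in soluble form can act as a ligand of the innate receptors TLR2 and TLR4. Its level was 159, 335 and 94.3 FPKM in the MI libraries and 61.3, 33.0 and 1.52 FPKM in the Normal libraries, in the order Ms1535, Ms1537, Ms1608. Every MI library lay above every Normal library. The log2 difference was 3.30 (SE 1.13, limma adjusted p = 0.252).

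Aspn encodes asporin, a class I protein with a stretch of aspartates and no sugar chain, known as an inhibitor of TGF-beta in cartilage. Its level was 31.9, 96.2 and 16.4 FPKM after MI against 5.55, 13.7 and 0.533 FPKM in Normal. The groups did not overlap, although MI Ms1608 and Normal Ms1537 were close. The log2 difference was 2.85 (SE 0.98, limma adjusted p = 0.252).

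Of the class II genes, Lum encodes lumican, which regulates fibril spacing and carries keratan sulfate in the cornea. Its level was 357, 299 and 40.1 FPKM after MI against 30.8, 37.3 and 0.943 FPKM in Normal. Lum had the largest difference of the tested members, at 3.62 (SE 1.24, limma adjusted p = 0.252), and its groups did not overlap. MI Ms1608 lay only slightly above the higher Normal libraries, and the value in Normal Ms1608 rested on about 80 fragments.

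Prelp encodes a basic protein that binds collagen and the heparan sulfate chains of perlecan. Its level was 32.2, 81.2 and 25.8 FPKM after MI against 15.5, 12.6 and 0.496 FPKM in Normal. The groups did not overlap, and the log2 difference was the smallest after Dcn, at 2.59 (SE 0.99, limma adjusted p = 0.267). An antisense gene, Gm15851, overlaps Prelp, and the strand setting was not given in the sources used here, so reads of the pair cannot be told apart. The same limit holds for Aspn and Ogn, which the opposite-strand gene Cenpp overlaps.

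Fmod encodes fibromodulin, which binds collagen and guides its cross-linking in tendon. It reached 12.2 and 19.1 FPKM in the MI libraries Ms1535 and Ms1537 but 0.352 FPKM in MI Ms1608, and 0.806, 0.272 and 0.0634 FPKM in Normal. Only 2 libraries reached 1 FPKM, so Fmod did not pass the expression filter and was not tested with the others. Without that filter the limma fit gave a log2 difference of 2.399 (SE 1.06, adjusted p = 0.649). The values overlapped between groups, since MI Ms1608 lay below Normal Ms1535. The lowest value, in Normal Ms1608, rested on about 7 fragments.

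The class III gene Ogn encodes osteoglycin, also called mimecan, a small collagen-binding protein. Its level was 78.7, 180.7 and 30.2 FPKM after MI against 17.5, 29.1 and 0.519 FPKM in Normal. MI Ms1608 and Normal Ms1537 were close, but the groups did not overlap. The log2 difference was 3.02 (SE 1.14, limma adjusted p = 0.264). Of the 7 genes, Ogn followed the others most closely, with a Pearson r of 0.994 over the 6 libraries with the mean log2 level of the other tested members. The lowest such r was 0.798, for Fmod.

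By limma with Benjamini-Hochberg adjustment, 0 of the 6 tested members passed an adjusted p of 0.05, as against 0.00983% of all tested genes, which is 1 gene, the predicted gene Gm24890, listed at 0 in every Normal library. All 6 had an unadjusted p under 0.05 with MI higher, as did 16.1% of tested genes (16.3% in either direction). In 5 of the 6 every MI library lay above every Normal library, against 25.0% of tested genes. The median log2 difference of the 6 was 2.94, beside 0.78 for all tested genes, 87.2% of which had a difference above 0. The members thus lay 1.61 (Dcn) to 2.84 (Lum) above the median gene. Each of the 6 stood at 1 FPKM or more in all MI libraries and in Normal Ms1535 and Ms1537, so none passed the filter through the MI group alone. The unadjusted count of members was 0 without MI Ms1537, where it was 847 over all 10168 genes. With the libraries rescaled it was 0 by median ratio (328 over all genes), 0 by upper quartile (467) and 2 by quantiles (291).

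Without Normal Ms1608 the log2 differences of the 6 members were smaller, from 1.48 (Prelp) to 2.23 (Lum), with limma adjusted p from 0.0841 (Bgn) to 0.142 (Ogn). Again 0 members passed, while 4.45% of all tested genes passed with MI higher and 4.51%, or 459 genes, in either direction. The median difference of the members was 1.80 and that of all genes 0.83, with 87.7% of genes above 0. All 6 had an unadjusted p under 0.05, beside 30.8% of tested genes with MI higher and 31.6% in either direction, and 5 did not overlap, beside 52.6%. The members then lay 0.65 (Prelp) to 1.40 (Lum) above the median gene.

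Without both Ms1608 libraries, leaving 2 against 2, 4 of the 6 members passed with MI higher, beside 14.0% of all tested genes (14.4% in either direction). These libraries were the lowest of their groups for 7 of 7 members, so this choice is tied to the members' own values. The marker reason given above covers Normal Ms1608 only. The counts of this comparison are therefore a description and not support for a difference. All 6 had an unadjusted p under 0.05, beside 41.2% of genes with MI higher and 42.5% in either direction, and all 6 were apart between groups, as were 69.0% of genes. Lum rose by 3.23 (SE 0.35, limma adjusted p = 0.0259) and Dcn by 2.23 (SE 0.31, limma adjusted p = 0.0290). Ogn rose by 2.35 (SE 0.52, limma adjusted p = 0.0414) and Bgn by 2.335 (SE 0.51, limma adjusted p = 0.0408). Aspn at 2.53 and Prelp at 1.80 missed the threshold (limma adjusted p = 0.0524 and 0.0627). In this comparison the median gene lay 1.00 higher in MI, and 89.3% of genes had a difference above 0.

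**Figure D2:**
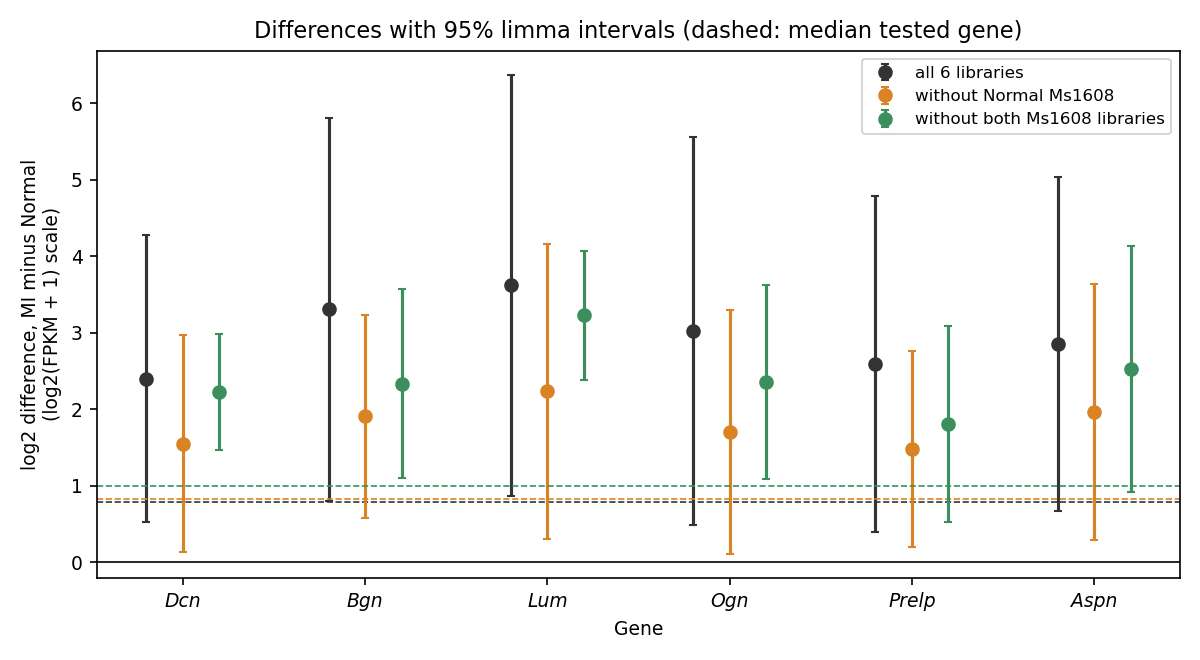
Log2 differences (MI minus Normal, log2(FPKM + 1) scale) of the 6 tested members with 95% limma intervals, for all 6 libraries, without Normal Ms1608 and without both Ms1608 libraries. Dashed lines mark the median tested gene of each comparison, at 0.78, 0.83 and 1.00.

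The order of the 7 mRNAs within a library was similar across libraries. Dcn made up 81.9%, 72.9% and 77.2% of the summed FPKM of the 7 across the MI libraries, in the usual order, and 80.1%, 84.9% and 96.3% in the Normal libraries. In Normal Ms1608 the other 6 genes together reached only 4.07 FPKM, against 126 and 132 FPKM in the other Normal libraries and 207 to 1011 FPKM in MI. Below Dcn, Bgn and Lum exchanged places within both groups, the Bgn to Lum ratio being 0.447, 1.12 and 2.35 in MI and 1.99, 0.884 and 1.61 in Normal. Prelp and Aspn exchanged places as well, so neither pair was separated by more than the spread between libraries. Dcn lay above Bgn, Lum above Ogn, Ogn above Prelp, and Aspn above Fmod in 3 of 3 libraries of each group.

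Lum relative to Dcn, both in FPKM, was 0.117 and 0.110 in MI Ms1535 and Ms1537 and 0.0572 in MI Ms1608. It was 0.0581 and 0.0527 in Normal Ms1535 and Ms1537 and 0.00903 in Normal Ms1608. MI Ms1608 thus matched the higher Normal libraries in this ratio, and the groups overlapped by a narrow margin. Bgn relative to Dcn showed no such separation, at 0.0525, 0.123 and 0.134 in MI and 0.116, 0.0466 and 0.0145 in Normal.

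The family genes lie in chromosomal groups that also hold relatives outside the 7, given here on GRCm38 with GENCODE M21. Dcn (chromosome 10, 97479609 to 97518143, plus strand) is followed 47.0 kb on by Lum (97565128 to 97572703), then Kera and Epyc. Aspn (chromosome 13, 49544443 to 49567565) and Ogn (49608046 to 49624501), both on the plus strand, flank Omd, with Ecm2 ahead of Aspn. Prelp (chromosome 1, 133910304 to 133921414, minus strand) and Fmod (134037254 to 134048277, plus strand) lie 115.8 kb apart, with Optc next to Prelp. No other protein-coding gene lies between neighbours of these groups, but Cenpp, on the opposite strand, spans the region of Ecm2, Aspn, Omd and Ogn. With the strand setting not given, reads of Cenpp and of these genes cannot be told apart where they overlap. Bgn lies on chromosome X (73483602 to 73495933), far from the family gene Nyx on the same chromosome.

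Neighbouring genes differed widely in level. Kera, which encodes the corneal proteoglycan keratocan, had 0.0151 to 0.140 FPKM over the 6 libraries, next to Lum at up to 357 FPKM. Epyc, the cartilage proteoglycan epiphycan, had 1.86, 5.45 and 0.520 FPKM after MI against 0.156, 0.480 and 0.0346 FPKM in Normal. Every MI value of Epyc was above every Normal value, but it reached 1 FPKM in 2 libraries and was not tested. Omd, which encodes osteomodulin of bone matrix, had 2.62, 18.6 and 1.38 FPKM after MI against 0.650, 1.20 and 0.0194 FPKM in Normal (1.84 higher on the log2 scale by limma, SE 0.78, adjusted p = 0.294). Its groups did not overlap.

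Ecm2, a matrix protein with leucine-rich repeats, had 3.21, 13.6 and 2.11 FPKM after MI against 2.75, 2.32 and 3.54 FPKM in Normal, and its groups overlapped. In Normal Ms1608, where the 6 members other than Dcn were at or below 1.52 FPKM, Ecm2 stood at its highest Normal level. Optc, the eye protein opticin, was at or below 0.134 FPKM in every library and listed at 0 in Normal Ms1535.

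Of the 11 other family genes in the table, 3 passed the filter, and 0 of these passed the limma threshold. Their median log2 difference was 1.43, beside 0.78 for all genes. Podn, which encodes podocan, had 1.40, 20.1 and 4.86 FPKM after MI against 3.30, 2.24 and 0.0990 FPKM in Normal. Podnl1, a relative of podocan, had 7.07, 1.99 and 0.889 FPKM after MI against 0.0162 to 0.0898 FPKM in Normal, so its groups did not overlap. Tsku, the secreted signalling modulator tsukushi, had 0.753 to 1.62 FPKM after MI against 0 to 0.197 FPKM in Normal. Chadl, Chad and Nyx, of cartilage and eye, had at most 1.77, 0.342 and 0.120 FPKM in any library.

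**Figure D3:**
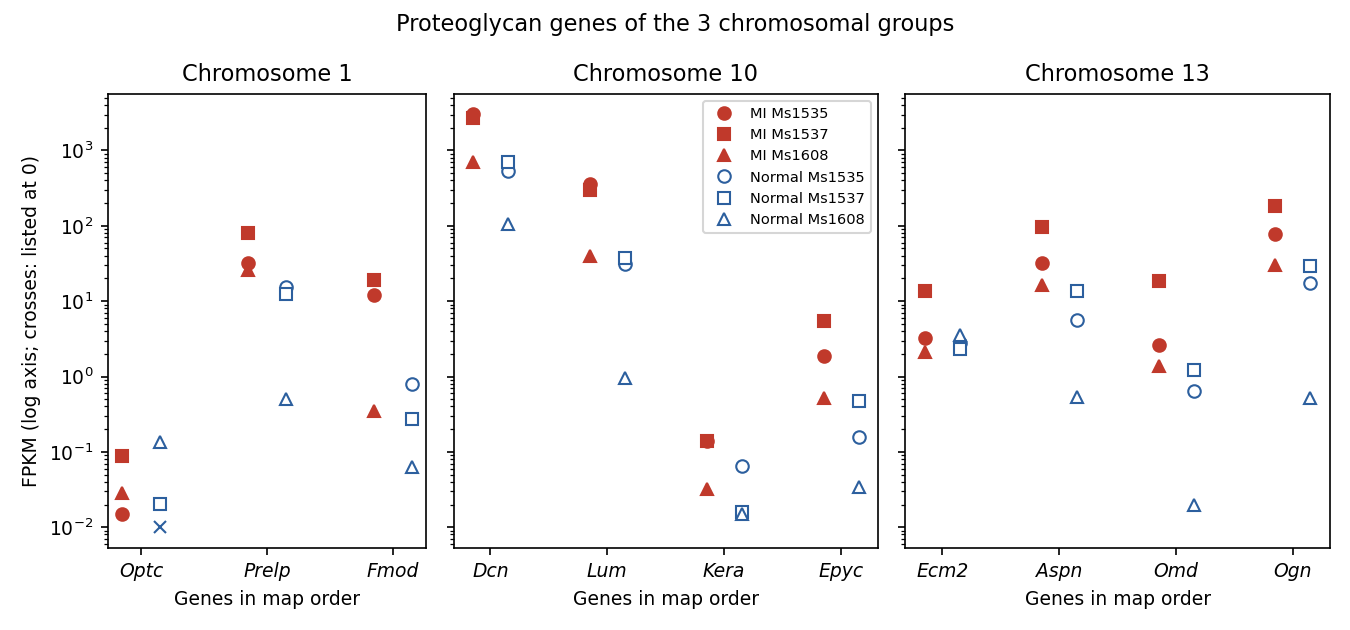
FPKM (log axis) of the genes of the 3 chromosomal groups in map order, MI filled and Normal open, with crosses for values listed at 0. Dcn and Lum lie far above their neighbours Kera and Epyc, and Aspn and Ogn above Omd and Ecm2 in most libraries.

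Promoter windows from RefSeq (GRCm38.p6, 250 bases before to 50 after the start site) were found for 5 members, Bgn, Fmod, Ogn, Prelp and Aspn. Of these, 3 are printed, those of the neighbours Aspn and Ogn and, for comparison, that of Bgn, which lies on another chromosome and followed the mean of the other members as closely (Pearson r 0.972, against 0.966 for Aspn). Capitals mark matches to the 6 motifs searched on both strands: TATAAA (the core of the TATA box), TGANTCA (bound by AP-1 factors), GGGCGG (the GC box), CCAAT (bound by NF-Y), CAGACA (a motif of SMAD factors) and GGAATG (a motif of TEAD factors).
Ogn, chr13:49607765-49608064, plus strand: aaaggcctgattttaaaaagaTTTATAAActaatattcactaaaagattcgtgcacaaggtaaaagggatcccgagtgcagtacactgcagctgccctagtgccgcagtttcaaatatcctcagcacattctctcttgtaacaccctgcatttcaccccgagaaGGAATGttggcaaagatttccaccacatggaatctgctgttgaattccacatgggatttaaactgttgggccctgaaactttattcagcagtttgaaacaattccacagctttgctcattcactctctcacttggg
Aspn, chr13:49544193-49544492, plus strand: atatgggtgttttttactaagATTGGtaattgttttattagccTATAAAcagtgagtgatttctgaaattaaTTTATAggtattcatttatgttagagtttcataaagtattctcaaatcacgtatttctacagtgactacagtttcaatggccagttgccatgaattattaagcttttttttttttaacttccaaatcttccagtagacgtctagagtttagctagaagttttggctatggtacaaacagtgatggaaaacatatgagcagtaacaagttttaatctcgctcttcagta
Bgn, chrX:73483351-73483650, plus strand: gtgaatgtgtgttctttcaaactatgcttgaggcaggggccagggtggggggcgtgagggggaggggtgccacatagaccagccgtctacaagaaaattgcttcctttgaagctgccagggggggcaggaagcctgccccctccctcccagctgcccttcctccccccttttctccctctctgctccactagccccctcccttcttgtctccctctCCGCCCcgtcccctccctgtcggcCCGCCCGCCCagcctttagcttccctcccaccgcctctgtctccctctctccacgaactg

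The printed windows differ in base composition. That of Bgn is 63.7% G or C, those of Ogn and Aspn 42.3% and 31.0%, and the median over 32851 windows in the table is 52.7%. Bgn holds GGGCGG 3 times on the opposite strand, with the matches at bases 241 and 245 of the window overlapping, and 35.7% of all windows hold it. Ogn and Aspn each hold TATAAA 2 times, and 13.6% of windows hold it, and in Ogn the matches on the 2 strands overlap. Counted from the start site, these matches lie at -227 and -229 in Ogn and at -207 and -178 in Aspn, so none is close to it. Ogn also holds GGAATG (14.7% of windows), and Aspn CCAAT on the opposite strand (37.4%). Fmod and Prelp each hold CCAAT, and Prelp holds CAGACA 2 times (21.0% of windows). TGANTCA, found in 7.81% of windows, is in none of the 5. These are matches of letters and not shown sites, and no motif was shared by all 5.

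The members were set beside the fibrillar collagens that the proteins bind. For this list and those below, with all 6 libraries, 16.1% of tested genes had an unadjusted limma p under 0.05 with MI higher. Of 9 such genes 6 were tested, 0 passed by limma while the unadjusted p of 5 was under 0.05, and their median log2 difference was 3.16. Col3a1, the chain of type III collagen, had 774, 762 and 42.7 FPKM after MI against 22.6, 21.2 and 40.9 FPKM in Normal (3.40 higher on the log2 scale by limma, SE 1.06, adjusted p = 0.247). Col1a2, of type I collagen, had 738, 427 and 47.6 FPKM after MI against 20.9, 23.7 and 37.9 FPKM in Normal. Both were higher in Normal Ms1608 than in the other Normal libraries. Col1a1, the other chain of type I collagen, was lower there, at 3.10 FPKM against 11.6 and 9.52 FPKM, as were Col5a1, Col5a2 and Col5a3 of type V collagen and all 7 proteoglycan genes.

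The ratio of Dcn to Col3a1, both in FPKM, was 3.92 and 3.56 in MI Ms1535 and Ms1537 and 16.4 in MI Ms1608. It was 23.4 and 33.3 in Normal Ms1535 and Ms1537, but 2.55 in Normal Ms1608. The FPKM of Dcn thus exceeded that of Col3a1 in all 6 libraries, by the most in Normal Ms1535 and Ms1537. The Lum to Col3a1 ratio was 0.461, 0.392 and 0.939 in MI and 1.36, 1.76 and 0.0231 in Normal. The ratio of Ogn to Col3a1 was 0.102, 0.237 and 0.707 in MI and 0.772, 1.37 and 0.0127 in Normal. For Dcn, Lum and Ogn, the 3 MI ratios lay below those of Normal Ms1535 and Ms1537 and above that of Normal Ms1608, so the groups overlapped with all 6 libraries. The Bgn to Col3a1 ratio was 0.206, 0.440 and 2.21 in MI and 2.71, 1.55 and 0.0371 in Normal, and it overlapped also without Normal Ms1608. Relative to Col1a1, Dcn was at 12.5, 37.4 and 34.4 in MI and 45.8, 74.25 and 33.7 in Normal, so by that collagen Normal Ms1608 lay among the MI libraries. These ratios were not tested.

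**Figure D4:**
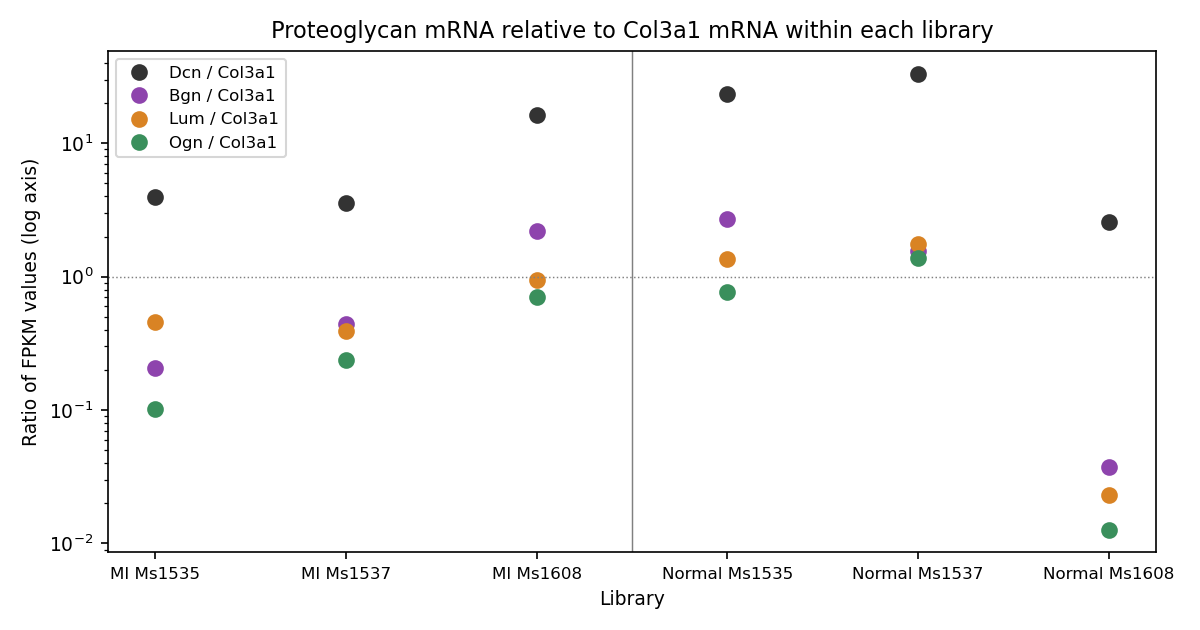
Ratio of the FPKM of Dcn, Bgn, Lum and Ogn to that of Col3a1 in each library (log axis, dotted line at 1). The ratios are lowest in Normal Ms1608, from 0.0127 for Ogn to 2.55 for Dcn, and high in Normal Ms1535 and Ms1537.

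As sums, both the fibroblast markers and the members were higher in every MI library than in every Normal library. Between Normal Ms1535 and Ms1537 the sums went opposite ways, that of the members being 661.5 and 832.9 FPKM. Leaving out the 7, 14 of the 15 markers were in the table and all 14 were tested. Their summed level was 2770, 3493 and 599.5 FPKM across the MI libraries and 428, 423.5 and 128 FPKM across the Normal ones, in the same order. Their median log2 difference was 2.24, with 8 of 14 at an unadjusted p under 0.05 and 0 past the limma threshold. None was at 0 in MI, and 1, the activated-fibroblast protease Fap, was listed at 0 in Normal Ms1608. Single markers did not all follow the sum. Col3a1, Col1a2 and Thy1 were at their highest Normal level in Normal Ms1608, and Gsn and Pi16 were lower in MI Ms1535 than in Normal Ms1535. The median log2(FPKM + 1) of the 7 members minus that of the markers was 0.80, 0.96 and 0.05 in MI and 0.42, 1.22 and -0.86 in Normal. The MI values thus lay within the range of the Normal values, whose lower end was Normal Ms1608. Without that library, MI Ms1608 lay below the remaining Normal values and the other MI values lay between them. The part of these markers in the members' differences was not tested, and in bulk libraries more cells of a type cannot be told apart from more RNA per cell.

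Dcn relative to Dpt, the gene of the decorin-binding protein dermatopontin, was 6.72 to 10.1 in 5 libraries and 68.6 in Normal Ms1608. Bgn relative to Pdgfra, the alpha receptor of platelet-derived growth factor, lay between 23.7 and 44.7 in all 6 libraries, although Bgn itself ranged from 1.52 to 335 FPKM. Relative to the same gene, Dcn ranged from 192 to 2783 and Lum from 16.5 to 63.5. Pdgfra was at 0.0375 FPKM in Normal Ms1608, a level that rests on few fragments.

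Markers of other cells were read beside the members. Smooth muscle and pericyte markers summed to 12.45 to 33.0 FPKM over 7 genes in 5 libraries and 0.678 FPKM in Normal Ms1608 (median log2 difference 0.34, 0 of 4 tested past the threshold, and 1 with its unadjusted p under 0.05). Cardiomyocyte markers summed to 210, 148 and 1023 FPKM after MI against 816, 451 and 8.87 FPKM in Normal (median 1.06, 0 of 5 past the threshold, 0 at an unadjusted p under 0.05). Macrophage markers summed to 755, 1135 and 2269 FPKM after MI against 152, 220.5 and 2561 FPKM in Normal (median 1.44, 0 of 5 past, 1 at an unadjusted p under 0.05). Most of the macrophage sum was Lyz2, a lysozyme also made by neutrophils, at 2454 FPKM in Normal Ms1608. In that library Adgre1, the gene of F4/80, was at 0.00904 FPKM and the complement gene C1qa at its lowest of 6, 2.28 FPKM. Mrc1 went the other way, at its highest of 6, 95.2 FPKM. The remaining macrophage markers, Cd68 and Csf1r, were at 6.27 and 2.77 FPKM there. MI Ms1608, the lowest MI library for all members, had the highest cardiomyocyte and macrophage sums of the MI group. Each marker of both lists was at its highest MI level in that library, with C1qa at 38.18 FPKM and Adgre1 at 7.215 FPKM. The part of such cells in the members' values was not tested. Endothelial markers had a median of 0.71 over 12 genes and leukocyte markers of 1.43 over 9, with 0 past the limma threshold in either and 0 and 1 at an unadjusted p under 0.05. Without Normal Ms1608 these medians were -0.86 and 2.53, and 7 of 9 leukocyte markers passed, beside 4.45% of tested genes with MI higher.

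Markers of tendon and valve cells, in which fibromodulin is abundant, were highest in MI Ms1537, as were Fmod, Bgn, Ogn, Prelp and Aspn. The markers summed to 23.9, 155 and 2.62 FPKM over 4 genes in MI and to 1.54, 2.10 and 0.326 FPKM in Normal. Most of the 155 FPKM was Comp. At lower levels the orders differed, Fmod being higher in Normal Ms1535, at 0.806 FPKM, than in MI Ms1608, at 0.352 FPKM. Comp, a cartilage and tendon matrix protein, had 20.8, 136.5 and 1.60 FPKM after MI against 0.202 to 1.21 FPKM in Normal (3.58 higher on the log2 scale by limma, SE 1.22, adjusted p = 0.252). Thbs4 was listed at 0 in Normal Ms1537 and Tnmd in Normal Ms1535, and of 2 tested genes 0 passed by limma, the unadjusted p of 1 being under 0.05. Mesothelial and epicardial markers summed to 90.2, 11.9 and 10.9 FPKM after MI against 13.0, 8.37 and 33.8 FPKM in Normal, with 1 gene tested and 0 past the threshold or at an unadjusted p under 0.05. Single genes carried these sums, Wt1 with 83.6 FPKM in MI Ms1535 and Krt19 with 32.4 FPKM in Normal Ms1608, where Wt1 was lowest at 1.06 FPKM. The part of these cells in the members' differences was not tested.

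**Figure D5:**
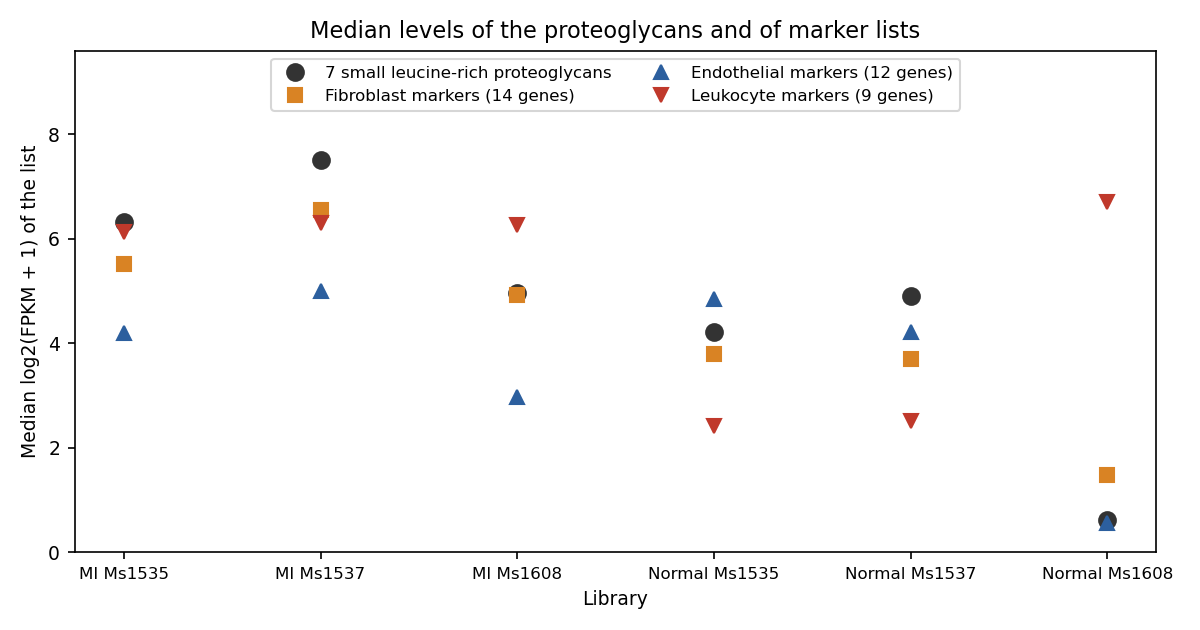
Median log2(FPKM + 1) of the 7 proteoglycans and of fibroblast (14), endothelial (12) and leukocyte (9) markers in each library. The proteoglycan and fibroblast medians are highest in MI Ms1537, at 7.50 and 6.55, and lowest in Normal Ms1608, at 0.62 and 1.48, where the leukocyte median is highest, at 6.70.

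Enzymes that build the sugar chains carried by decorin and biglycan were read beside the core proteins. Of 22 genes of chondroitin and dermatan sulfate synthesis 12 were tested, 0 passed by limma while the unadjusted p of 2 was under 0.05 with MI higher, and the median log2 difference was 0.73, near that of all genes. Of the 2, Chst15 passed the filter through the MI libraries alone. Dsel, an epimerase-like gene of dermatan sulfate synthesis, had 42.0, 39.9 and 12.55 FPKM after MI against 17.3, 25.25 and 0.212 FPKM in Normal. Chsy1, a chondroitin synthase, had 9.71, 22.6 and 16.7 FPKM after MI against 2.86, 5.33 and 1.49 FPKM in Normal (2.07 higher on the log2 scale by limma, SE 0.71, adjusted p = 0.252), with no overlap. Chst3, a sulfotransferase, was highest in Normal Ms1608, at 23.4 FPKM, where Dcn and Bgn were lowest. Of 4 keratan sulfate genes 2 were tested, with 0 past the threshold or at an unadjusted p under 0.05 (median 0.53), and B4galt4, a galactosyltransferase, had 14.1, 46.6 and 3.46 FPKM after MI against 22.2, 30.5 and 0.452 FPKM in Normal.

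Receptors reported to bind these proteoglycans gave 0 of 5 tested genes past the threshold by limma, with 1 at an unadjusted p under 0.05 (median 0.89). Without Normal Ms1608, Cd44, the hyaluronan receptor, passed limma at 3.10 on the log2 scale (SE 0.51, adjusted p = 0.0238). Cd44 had 44.0, 18.6 and 33.0 FPKM after MI against 2.60, 2.64 and 47.9 FPKM in Normal. Tlr2, which biglycan can engage, stood 1.42 higher on the log2 scale (SE 0.53, limma adjusted p = 0.261) with all 6 libraries. Tlr4, the other receptor of biglycan named above, stood 0.68 higher (SE 0.62, limma adjusted p = 0.576), below the median gene, and its groups overlapped. Of 6 genes for TGF-beta ligands and matrix proteases 3 were tested, 0 passed and 2 had an unadjusted p under 0.05 (median 2.56). Of the 2, the ligand gene Tgfb3 passed the filter through the MI libraries alone. Bmp1, the protease that removes the propeptide of biglycan, had 9.53, 10.4 and 1.64 FPKM after MI against 0.978, 1.06 and 0.0595 FPKM in Normal (2.07 higher on the log2 scale by limma, SE 0.70, adjusted p = 0.252), with no overlap. Pcolce, an enhancer of that protease, had 149, 227.5 and 75.6 FPKM after MI against 78.4, 51.4 and 0.980 FPKM in Normal.

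Other proteoglycan core proteins gave 0 of 9 tested genes past the threshold by limma, and 5 at an unadjusted p under 0.05 (median 1.43). Of the 5, Sdc1 and Gpc6 passed the filter through the MI libraries alone, so they were tested only because their MI values were high. Srgn, the serglycin of leukocyte granules, was the most abundant, at 2722 to 3893 FPKM after MI against 1064, 1362 and 6808 FPKM in Normal, and so stood highest in the library where the members were lowest. Sdc4, a heparan sulfate proteoglycan of the cell surface, passed without Normal Ms1608 (2.86 higher on the log2 scale by limma, SE 0.57, adjusted p = 0.0355).

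Without Normal Ms1608 the lists read as follows by limma, beside 4.45% of tested genes past the threshold with MI higher. The fibrillar collagens gave 0 of 6 past the threshold with a median log2 difference of 2.67, and the fibroblast markers 1 of 14, the surface protein Thy1, with a median of 1.67. The other family genes gave 0 of 3 with a median of 0.84, and the TGF-beta ligands and proteases 0 of 3 with 1.76. Chain synthesis gave 0 of 12 with a median of 0.75 for chondroitin and dermatan sulfate, beside 0.83 for all genes, and 0 of 2 with a median of -0.33 for keratan sulfate. Receptors gave 1 of 5 (median 1.23) and other proteoglycan core proteins 1 of 9 (median 1.25). Among other cell markers, 1 of 5 macrophage genes passed (median 2.06), and 0 passed for smooth muscle (-0.15), cardiomyocyte (-0.92), tendon and valve (1.86) and mesothelial genes (1.05).

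The genes whose log2(FPKM + 1) pattern over the 6 libraries was most like the mean of the 6 tested members were Iah1, Serpinf1, Sdc2, Arfrp1 and Ubr1, with Pearson r of 0.998 for each of the first 4 and 0.997 for Ubr1. Serpinf1, which encodes the secreted factor PEDF, had 40.4, 55.0 and 13.6 FPKM after MI against 10.5, 11.4 and 0.388 FPKM in Normal. Sdc2, a cell surface heparan sulfate proteoglycan, had 21.9, 36.2 and 10.8 FPKM after MI against 8.10, 7.98 and 0.229 FPKM in Normal. Such values were not rare. Of 8864 genes compared, 6.92% had an r above 0.95, and all points share the 6 libraries, with Normal Ms1608 far below the rest.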

How the data were processed

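RNA from sorted cells was amplified by T7 transcription and sequenced in pairs, per the labels' protocols. The authors' deposited FPKM values came with STAR 2.4.2a, Cufflinks 2.2.1 and GRCm38 in the submitters' processing notes; annotation release, strand setting and handling of multi-mapped reads: not given in the sources used here. Depth was estimated from steps of 1 fragment in genes with 1 transcript, after taking 175 bases off the length: 92.1% to 93.9% of low values lay within 0.1 of a whole number, against 20% if evenly spread, though the step was fitted to these values. On a gene of 2 kb, 3 fragments were 0.0340 to 0.0474 FPKM. Amplified reads are not independent molecules, so this covers counting error only. Fragments behind a value are approximate and use the longest coding transcript.

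The 10168 genes reaching 1 FPKM in 3 or more of the 6 libraries were fitted by limma 3.58.1 in R 4.3.3 (trended prior variance) as log2(FPKM + 1), which understates changes of low genes, with group as the only term and Benjamini-Hochberg adjustment over all of them (threshold 0.05). The fit was tested on simulated data. How often the fit finds or misses a difference at the spread of these libraries was not tested. Exact permutation of 3 against 3 cannot go below 0.1 and was not used. No label names separate animals for the 3 samples of a group, so a p-value reflects only how these libraries vary, which may be technical. Members, companion lists and markers were chosen with earlier results of these data known. Named genes were the members, the other family genes, the 5 genes closest in pattern and, from the lists, mainly those with the highest mean FPKM. Genes named from a list for another reason (Tlr2, Tlr4, Adgre1, Cd68, Csf1r, Pecam1, Col5a1, Col5a2, Col5a3, Sdc1, Sdc4, Gpc6, Chst15, Pdgfra, Dpt, Fap, Thy1, Pi16, Tnmd, Gm24890) were chosen after their values were seen. Alternatives covered the pseudocount, filter, scaling, trend, replicate block and left-out libraries.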

Additional observations from a re-analysis of the deposited data

How the results depend on the processing

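The log2 differences of the 6 tested members stayed above 0 and above that of the median gene in all 16 alternatives, and Fmod, fitted in 2 of them, was above both there. Both Ms1608 libraries were the lowest of their groups for all 7 members. With 0 members past the threshold as reported, the count moved only without these 2 libraries, to 4. It was 0 without any single library. Genes past the threshold over the whole table numbered 1 as reported, from 1 to 459 without a single library (459 without Normal Ms1608, 2 without MI Ms1537) and 1469 without both Ms1608 libraries. Members at an unadjusted p under 0.05 fell from 6 to 0 after median-ratio or upper-quartile scaling and without MI Ms1537, to 2 after quantile scaling and to 4 without MI Ms1535, and those with no overlap from 5 to 2, 1 and 2 under these scalings (median ratio, upper quartile, quantile). Over all 10168 genes the unadjusted counts with MI higher were then 328, 467 and 291, 847 without MI Ms1537 and 857 without MI Ms1535, and those with no overlap 688, 931 and 567. Scaling put the median gene at -0.03, 0.20 and -0.05, and Dcn then differed by 1.30, 1.65 and 2.22 and Lum by 2.61, 2.83 and 2.70. Leaving out Normal Ms1608 cut the Dcn difference from 2.398 to 1.55. The cause of these moves was not tested. The numbers in the titles could not be shown to pair the samples. Correlations of same-numbered deviations were -0.05, 0.10 and 0.09, and not every library correlated best with its own number. Deviations from a mean of 3 libraries cannot decide pairing. With the replicate block the members' limma adjusted p was 0.198 to 0.208, still with 0 past the threshold and 1 gene over the table. The block lowered the SE of all 6 members, for Lum from 1.24 to 0.82. Over all genes, those with MI higher at an unadjusted limma p under 0.05 went from 1635 to 1818. Values under about 0.05 FPKM rest on few fragments.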
